A study of Sus scrofa with 9 samples.

Results

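circRNA-1572 was the only circular RNA (circRNA) listed for the host gene C18orf25, 1 of 3071 circRNAs from 1727 host genes counted in pig MII oocytes, sperm and PN embryos. It was found by taking every entry whose host gene is C18orf25. MII oocytes were matured in vitro from ovaries of Long White gilts over 8 months old and freed of cumulus cells. PN embryos were collected 18 h after the start of in vitro fertilization with semen from Landrace boars aged 2 to 3 years. Sperm was purified, mature and fresh, from Large White boars of the same ages. The boars of the sperm libraries and those behind the PN embryos thus differed in breed. Differences between sperm and PN embryos cannot be told apart from differences between these boars. All samples were labelled as untreated, and the methods give pools of 10000 oocytes or embryos. Each group had 3 libraries of total RNA depleted of ribosomal RNA, and nothing in the labels says whether they came from separate animals or fertilizations, so that p-values measure only the spread between these samples. The circRNA columns of sperm 1 and sperm 3 held the same values throughout, with 562 circRNAs above 0, and were counted as 1 sample, which left 8 distinct libraries. In the mRNA table the same pair of libraries had equal counts at only 0.418% of the loci above 0 in either, so that the identity was limited to the circRNA table, and which of both libraries its counts belong to is not known.

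A circRNA forms when a downstream splice donor is joined to an upstream acceptor, which closes one or more exons into a ring without free ends. The ring is recognised in sequencing data by reads across this back-splice junction, and it resists the exonuclease RNase R. Sperm is transcriptionally silent and carries RNA kept from spermatogenesis, whereas the fully grown oocyte holds a large store of maternal RNA. A circRNA found in sperm and zygotes but not in oocytes is therefore a candidate for delivery at fertilization, which was the question behind these libraries. C18orf25 encodes a protein related to the amino-terminal part of the ubiquitin ligase RNF111 (Arkadia) but without its RING domain. In the RefSeq annotation of the Sscrofa11.1 build the porcine gene is listed as C1H18orf25 on chromosome 1, from 95808695 to 95899307 (90613 bp), between HAUS1 and RNF165. Neither RNF111 nor RNF165, the Arkadia relatives, was listed with a circRNA.

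The study listed a sequence of 785 bases for circRNA-1572, with a GC content of 48.5%, and the reagents made against it. Its junction is the part that sets the circle apart from linear RNA of the same gene. Here the last 15 bases of the listed sequence are in lower case and the first 15 bases, which follow them in the ring, in capitals.
circRNA-1572 junction: cugcagagauaccagGUUGGUUUCCUGUUG
Si-circRNA-1572-2: gauaccagGUUGGUUUCCU
Si-circRNA-1572-1: gcagagauaccagGUUGGU
The 2 small interfering RNAs used for knockdown are shown as sense strands because both lie across the junction. Si-circRNA-1572-2 places 8 bases before the junction and 11 after it, and Si-circRNA-1572-1 places 13 before and 6 after. They are shifted by 5 bases and share 14, and neither matches the opened, linear sequence over its 19 bases. The map of the circle shows where these reagents, the primers and the miRNA matches lie.

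**Figure D1:**
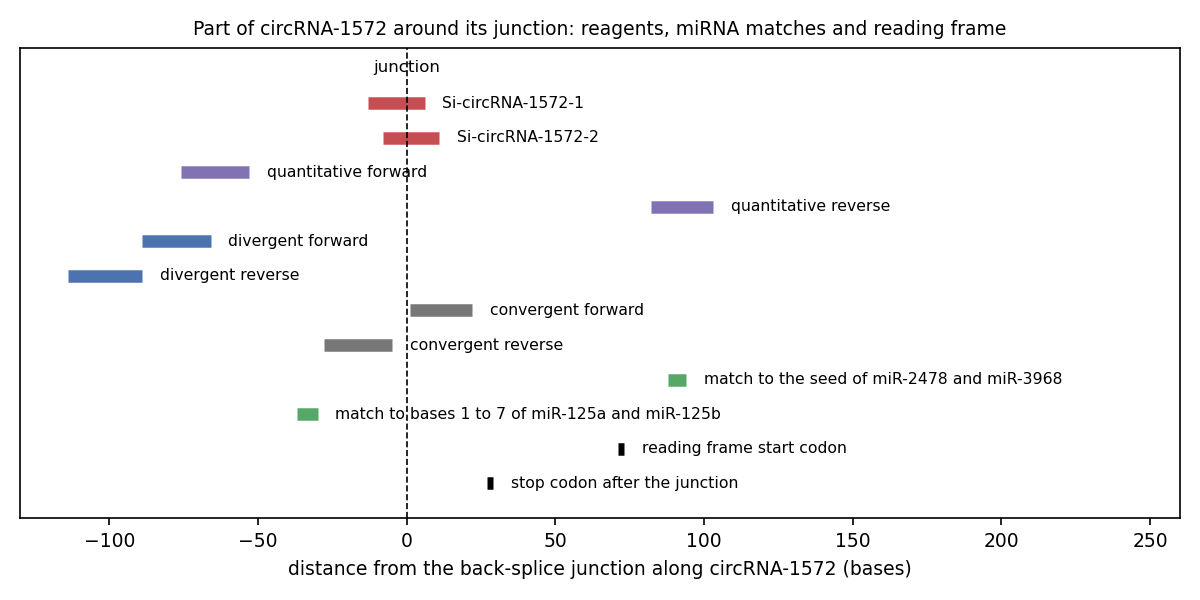
Distance from the back-splice junction (0, dashed line) along circRNA-1572, in bases, with each bar drawn to scale over the bases it covers. Both siRNAs cross the junction, from base 773 to base 6 and from base 778 to base 11, and the quantitative primers stand on either side of it.

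The primers for quantification by PCR are shown because their order on the sequence makes the assay specific to the ring.
quantitative forward: gactcaagcacaagctcatcaga
quantitative reverse: ttcaacttttcccactgcctcc
The forward primer covers bases 710 to 732 and the reverse primer bases 82 to 103, so that a product of 179 bases is predicted around the ring and none on the opened sequence. The divergent primers lie back to back (bases 697 to 719 and 672 to 696), and their predicted product runs once around all 785 bases. The convergent primers cover bases 1 to 22 and 758 to 780 and predict a product of 780 bases from the opened sequence as well as from the ring.

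The study tested miRNAs against circRNA-1572 as partners in a sponge mechanism, in which an RNA with sites for a miRNA keeps it from other targets. A miRNA recognises its targets mainly through the seed, its bases 2 to 8, given in capitals for the synthetic mimics used in those tests.
Bta-miR-2478-L-2: aUCCCACUucugacacca
mmu-miR-3968_L-3_1ss14AT: aUCCCACUccugacacca
ssc-miR-125a_R-1: uCCCUGAGacccuuuaaccugu
ssc-miR-125b: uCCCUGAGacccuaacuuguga
The first pair shares a seed, and over their 18 bases they differ by 1 substitution, U9C, counted from the 5′ end with the base of Bta-miR-2478-L-2 first. The miR-125 pair shares another seed and the first 13 bases. The circle holds 1 match to the full seed of the first pair, at bases 88 to 94, and 0 matches to the full seed of the miR-125 pair. For the miR-125 pair there is 1 match to miRNA bases 1 to 7, at bases 749 to 755 of the circle. Both places are shown with the matching bases in capitals.
circRNA-1572 at the miR-2478 and miR-3968 seed: aaaugaagauggaggaggcAGUGGGAaaag
circRNA-1572 at miR-125 bases 1 to 7: agaugaugaugaagagguuUCAGGGAgcag
Without gaps and counting only A-U and G-C pairs, Bta-miR-2478-L-2 could pair over 12 of its 18 bases at the first place. For mmu-miR-3968_L-3_1ss14AT it was also 12 of 18 there. At the other place ssc-miR-125a_R-1 could pair over 14 of 22 bases and ssc-miR-125b over 12 of 22. The inhibitor of Bta-miR-2478-L-2 was the reverse complement of that miRNA over all 18 bases. A match of letters is a description of the sequence, and the libraries analysed here hold no measurement of binding. The quantitative reverse primer covers the seed match, at bases 82 to 103. The longest open reading frame starts with the AUG at base 71, ahead of the seed match, and runs for 247 codons, through the junction, to a stop codon at bases 27 to 29. Before the junction it holds 238 whole codons, so that the last 26 bases before the stop are read on the other side of the junction. The length of the ring is not a multiple of 3, and no measurement of translation is part of these libraries.

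circRNA-1572 was absent from the counts of MII oocytes, present in 2 of 3 PN embryo libraries and present in 1 of the 2 distinct sperm libraries. Its back-splice counts were 0, 0 and 0 in MII oocytes 1, 2 and 3. They were 96, 9 and 0 in PN embryos 1, 2 and 3. In sperm 1 the count was 0, and in sperm 2 it was 1332. The PN embryo and sperm libraries overlapped with the MII oocyte libraries at 0, and within each of both groups the exact intervals of the shares did not overlap between any 2 libraries. In pooled samples like these, fewer cells that hold an RNA and less of it per cell cannot be told apart. The circle was thus high in sperm 2, intermediate in PN embryo 1, low in PN embryo 2 and not counted in the other 5 distinct libraries.

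As a share of all circRNA counts in the library, circRNA-1572 made up 0.416% of 23056 counts in PN embryo 1, with an exact (Clopper-Pearson) 95% interval from 0.337% to 0.508%. In PN embryo 2 it made up 0.0344% of 26200 counts (exact interval from 0.0157% to 0.0652%). The share in PN embryo 1 was 12.1 times that in PN embryo 2, and PN embryo 1 alone held 91.4% of the counts of the circle in PN embryos. PN embryo 3 had 0 of 24503 counts, which allows a share of up to 0.0122% by a floor of 3 counts (exact upper limit 0.0151%). In sperm 2 the circle made up 0.794% of 167851 counts (exact interval from 0.752% to 0.837%). Sperm 1 had 0 of 155731 counts, which allows a share of up to 0.00193% by the same floor (exact upper limit 0.00237%), so that the depth of sperm 1 would have shown a level far below that of sperm 2. The MII oocyte libraries, with 22809 to 24217 circRNA counts, allow shares of up to 0.0124% to 0.0132% by that floor (exact upper limits 0.0152% to 0.0162%). Counting error is all that these limits and intervals cover, because PCR copies of a molecule were not told apart by molecular identifiers.

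**Figure D2:**
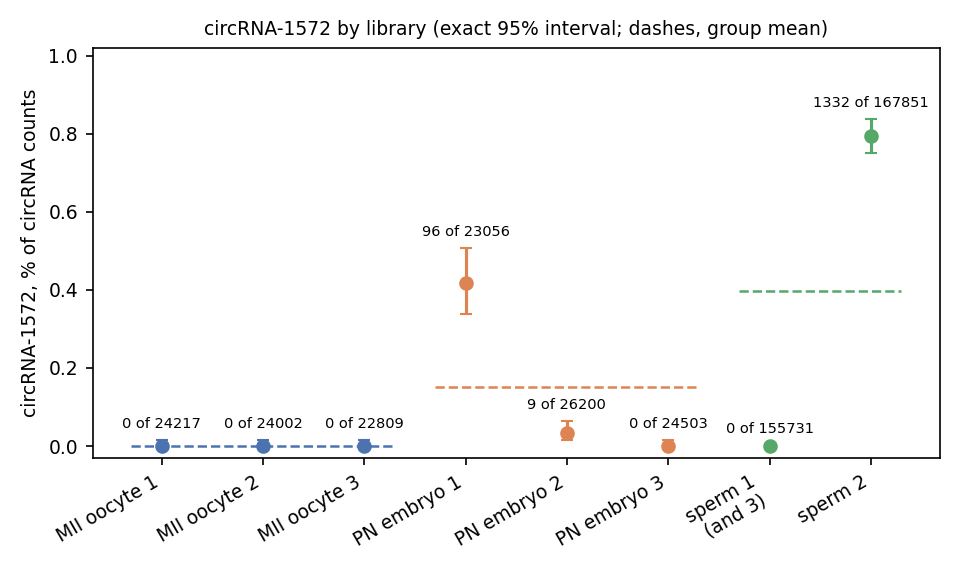
Share of circRNA-1572 in the circRNA counts of each distinct library, in percent, with exact 95% intervals as bars, the counts printed above and the group mean as a dashed line. PN embryo 1 (0.416%) and sperm 2 (0.794%) stand above the other libraries, and the MII oocyte libraries all lie at 0.

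The mean share was 0.150% ± 0.231 (SD, n = 3) in PN embryos and 0.397% ± 0.561 (SD, n = 2) in sperm, against 0 in MII oocytes (n = 3). The order of the means was sperm, PN embryos, MII oocytes, and in both groups above 0 the SD exceeded the mean. Over the summed libraries the level in PN embryos was at least 33.7-fold higher than the limit of 3 counts over all MII oocyte libraries, and at least 4.20-fold higher without PN embryo 1, a setting chosen after seeing the data. By the same floor the level in sperm was at least 97.5-fold higher than in MII oocytes, and without sperm 2 no count of the circle was left in sperm. Neither difference, nor that between sperm and PN embryos (2.64-fold by mean share), was larger than the spread between libraries. The two-sided exact permutation test of the mean share gave p = 0.4 for PN embryos against MII oocytes, where 3 libraries against 3 cannot go below 0.1. The exact test gave p = 0.8 both for sperm against MII oocytes and for sperm against PN embryos, where the smallest p possible is 0.2. None of these designs can reach 0.05.

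In the tests across all circRNAs edgeR did not call circRNA-1572, whereas DESeq2 called it for sperm against MII oocytes. With edgeR's quasi-likelihood test, circRNA-1572 had an adjusted p of 0.312 for PN embryos against MII oocytes and was higher in 2 of 3 PN embryo libraries. In that comparison 0 of 1390 circRNAs passed (0%), with 19 at an unadjusted p under 0.05, whereas DESeq2 called 28 of 1183 (2.37%) without circRNA-1572 (adjusted p = 0.335). For sperm against MII oocytes the circle had an adjusted p of 0.528 in edgeR, where 17 of 1713 circRNAs passed (0.992%), all of them lower in sperm, so that 0 (0%) were higher in sperm. DESeq2 called circRNA-1572 higher in sperm there (adjusted p = 2.9e-06), as 1 of 54 of 1082 circRNAs called higher (4.99%), although only 1 of 2 distinct sperm libraries held it. For sperm against PN embryos edgeR gave an adjusted p of 0.746, with 1 of 1553 circRNAs past the threshold (0.0644%). There DESeq2 called 295 of 984 (30.0%), 39 of them higher in sperm (3.96%), without circRNA-1572 (adjusted p = 0.579). Across the 3 groups at once the adjusted p was 0.518, with 2 of 2208 circRNAs past the threshold (0.0906%). The study had picked circRNA-1572 from these same libraries for its pattern, so that these tests are not independent evidence of it.

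By rank, circRNA-1572 belonged to the upper part of the circRNAs in 2 libraries and to the middle in another. In PN embryo 1 it stood at place 34 of 516 circRNAs above 0, level with 2 others at 96 counts. Its nearest neighbours there were the circles of VPS41 and TBC1D32 above it (97 counts each) and of OSBPL1A and NSF below it (93 and 92 counts). VPS41 belongs to the HOPS tethering complex of lysosomes, and NSF is the ATPase that takes SNARE complexes apart. In PN embryo 2 it stood at place 297 of 532, one of 7 circRNAs with 9 counts, where the circRNAs ranked above it held 97.5% of all counts. Its neighbours were the circles of AVL9 and SYCP2 (10 counts each) above it and of ZMYND11 and CCDC91 (8 counts each) below it. In sperm 2 it stood at place 15 of 568, and the circRNAs above it held only 22.1% of the counts, against 50.1% in PN embryo 1. Next to it in sperm 2 were the circles of ECPAS (1630 counts) and ENSSSCG00000007001 (1399 counts) above, and of FAM193A (1251 counts) and FBXO11 (1249 counts) below.

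**Figure D3:**
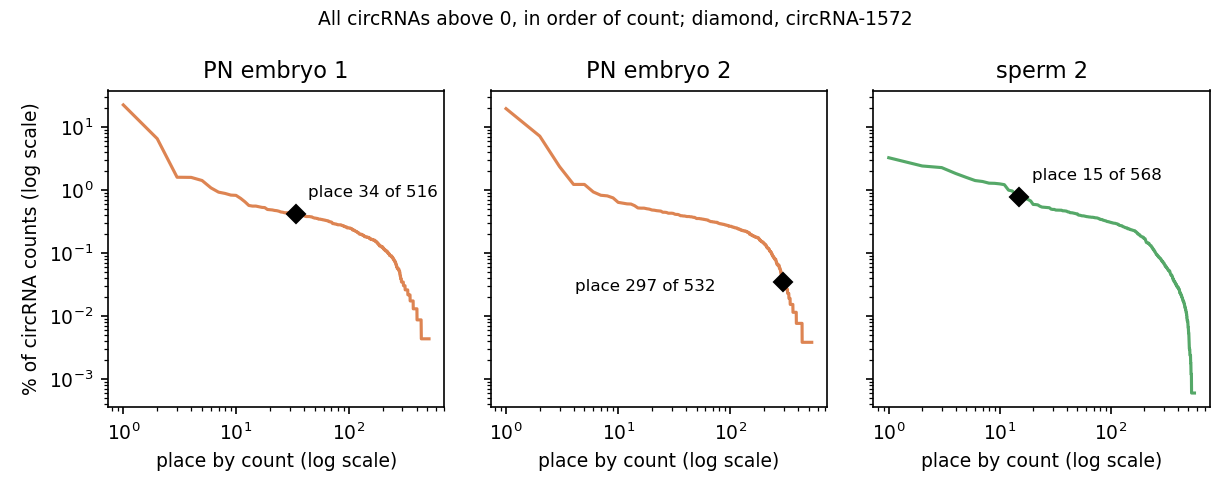
All circRNAs above 0 in the 3 libraries that hold circRNA-1572, in order of count (log scale), with their share of the circRNA counts in percent (log scale). The diamond marks circRNA-1572, at place 34 in PN embryo 1, on the steep lower end of the curve at place 297 in PN embryo 2, and at place 15 in sperm 2.

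Uneven detection between libraries of a group was common in the circRNA table. Of all 3071 circRNAs, 2194 (71.4%) were above 0 in 1 of the 8 distinct libraries, and 4 were above 0 in all of them. In PN embryo 1, 36 circRNAs had at least as many counts as circRNA-1572, and 15 of these were at 0 in PN embryo 3. Of the 15 circRNAs with at least as many counts as circRNA-1572 in sperm 2, 3 were at 0 in sperm 1, the circle itself included. Among 26 circles that reached 1000 counts in a sperm library, 10 (38.5%) were at 0 in the other. A high count in 1 library beside 0 in its replicate was therefore not particular to this circle.

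Counts above 0 in PN embryos and in sperm, with none in MII oocytes, were found for 103 circRNAs, a looser pattern than the high levels in sperm and embryos that the study asked for. By summed counts in PN embryos circRNA-1572 (105 counts) was at place 4 of these, and without PN embryo 1 (9 counts) at place 16 of 75, a setting added after seeing the data. Of those 26, 7 were at 0 in all MII oocyte libraries and above 0 in PN embryos. Among these 7, circRNA-1572 had the highest sum in PN embryos, next to 103 counts for circRNA-1881 of PRKAR1A, the regulatory subunit of protein kinase A, but stood at place 3 without PN embryo 1. The other 5 of the 7 had between 1 and 10 counts in PN embryos, although their summed sperm counts ranged from 1119 to 5009. The first place of circRNA-1572 among the 7 depended on the limit of 1000 counts in a sperm library. With 998 counts in sperm 2, circRNA-1892 of MAP2K4 fell just short of that limit. It was at 0 in MII oocytes and had 126 counts in PN embryo 2, more than the 105 of circRNA-1572. As a background for the embryo side, 47 circRNAs were at 0 in MII oocytes and reached at least 96 counts in a PN embryo library. The limit of 96 was the count of circRNA-1572 itself in PN embryo 1, which places the circle in this set. Of the 47, 5 were above 0 in sperm, circRNA-1572 included. In the mirrored case, 11 circRNAs at 0 in PN embryos had 96 or more counts in an MII oocyte library, and 0 of these were above 0 in sperm. With a limit of 50 counts the numbers were nearer to each other, at 9 of 184 for the embryo side and 3 of 165 for the mirrored case.

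The study shortlisted 5 other circRNAs together with circRNA-1572, and unlike it all 5 were counted in both distinct sperm libraries. circRNA-1881 was counted 1940 and 2393 times in sperm 1 and 2, and 0, 102 and 1 times in the PN embryo libraries. The ZSWIM6 circle, circRNA-1974, was counted 762 and 2682 times in sperm and 0, 7 and 3 times in PN embryos. circRNA-1892, from the stress kinase gene MAP2K4, stood at 33 and 998 in sperm and at 0, 126 and 0 in PN embryos. Most embryo counts of these 3 circles lay in PN embryo 2, whereas those of circRNA-1572 lay in PN embryo 1. circRNA-1985, from the transcription factor gene CREB1, also had most of its embryo counts in PN embryo 2, at 0, 73 and 1 in PN embryos. Its counts in sperm 1 and 2 were 442 and 75. circRNA-686, from the mannosidase gene MAN1A2, stood at 224 and 337 in sperm and at 0, 0 and 75 in PN embryos, and was the only one of the 6 with counts in MII oocytes (0, 2 and 1). No more than 1 PN embryo library held over 10 counts of any of the 6 circles. Over summed libraries the share in sperm was 2.89 times that in PN embryos for circRNA-1572, and from 1.59 times (circRNA-1985) to 78.5 times (circRNA-1974) for the others. In edgeR's fit the direction turned for circRNA-1985 and circRNA-686, with log2 fold changes of −0.15 and −1.96 in sperm against PN embryos, and circRNA-1892 stood at 0.23. circRNA-1572 stood at 1.79 in that fit, and its direction turned under 5 of 13 alternatives, among them leaving out PN embryo 3 or sperm 2. With edgeR's quasi-likelihood test 0 of the 6 passed in any of the comparisons, beside 0%, 0.992% and 0.0644% of all circRNAs. The lowest adjusted p among the 6 was 0.312.

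**Figure D4:**
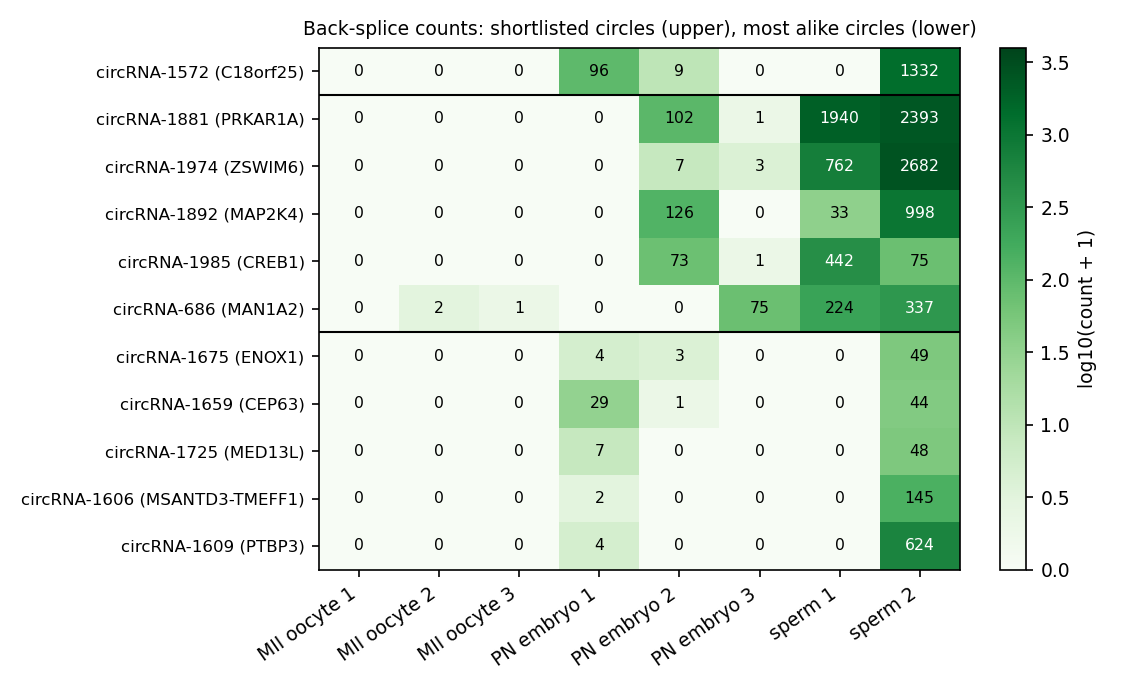
Back-splice counts in each distinct library, printed in each cell and shaded by log10(count + 1), for circRNA-1572 (top), the other 5 shortlisted circRNAs (middle) and the 5 circRNAs most like circRNA-1572 (bottom). circRNA-1572 and the 5 most alike circles have counts in PN embryo 1 and sperm 2 and none in sperm 1, whereas the shortlisted circles have counts in both sperm libraries and none in PN embryo 1.

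The circRNAs most like circRNA-1572 were taken as those with the highest Pearson r of log2(CPM + 1) over the 8 distinct libraries, among 2208 circRNAs with at least 10 counts in total. CPM scales each count to the circRNA total of its library, and r is a description only, since most points are at 0. First was circRNA-1675 of ENOX1, a cell surface oxidase gene (r = 0.991), at 4, 3 and 0 in PN embryos and 49 in sperm 2. Next came circRNA-1659 of CEP63, which encodes a centrosomal protein of centriole duplication (r = 0.981), at 29, 1 and 0 in PN embryos and 44 in sperm 2. The circles of MED13L, a subunit of the Mediator kinase module (r = 0.869), MSANTD3-TMEFF1 (r = 0.856) and the splicing regulator PTBP3 (r = 0.851) followed. These last 3 had 2 to 7 counts in PN embryo 1, none in PN embryo 2 and 48 to 624 counts in sperm 2. The same libraries on and off as for circRNA-1572 were seen for 4 circRNAs in all, those of C18orf25, CEP63, ENOX1 and KIF18A, the last a mitotic kinesin gene. Among these 4, circRNA-1572 had the highest count in PN embryo 1 and in sperm 2, and the circle of KIF18A was at 8 and 29 in PN embryos 1 and 2 and at 1 in sperm 2.

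Hosts were also counted in 3 lists of genes on the cell cycle, miRNAs and circRNAs, with no share over all genes to set beside them. Of 18 genes of the cyclin B and CDK1 module, which drives entry into M phase, 3 (CDK1, WEE1 and WEE2) were hosts of 4 circles. CCNB2, the cyclin gene that the study placed downstream of the circle, was not among the hosts. Each of the 4 circles was counted in 1 library alone, with 8 to 67 counts, as were 71.4% of all circRNAs, and 0 of the 4 in a PN embryo library. Of 12 genes of the miRNA machinery, 2 were hosts, namely DICER1 (69 counts in sperm 2) and AGO1 (3 counts in MII oocyte 2). Of 18 factors of circRNA formation and turnover, 4 were hosts (MBNL2, MBNL3, DHX9 and YTHDF2), with 5 circles.

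RNA other than the back-splice counts was followed through 4 assembled transcripts, of 60759 in the lncRNA table, that the authors assigned to C18orf25. The table gives their mean read depth (coverage), which is a level per length, and the mRNA table gives counts for loci of the same identifiers, which are a nearly fixed multiple of it (16.7 for MSTRG.5724), so that the tables are not independent measurements. Strand, exons and their relation to the circle are not given in the sources used here, so that these transcripts cannot be called the host mRNA. Summed over the 4, coverage was 656 ± 61.1 (SD, n = 3) in MII oocytes against 807 ± 95.96 (SD, n = 3) in PN embryos. Transcripts assigned to C18orf25 were thus covered in the oocytes, where the circle had no counts.

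MSTRG.5724.1 had a coverage of 329.70, 366.61 and 341.79 in MII oocytes 1 to 3, and of 412.61, 491.43 and 462.20 in PN embryos. In sperm it stood at 0, 0.13 and 0.20. The PN embryo libraries were all above the MII oocyte libraries, and sperm was near 0. MSTRG.5725.1 had 256.63, 341.56 and 279.95 in MII oocytes and 254.28, 342.31 and 245.38 in PN embryos, ranges that overlapped. In sperm its coverage was 0.13, 2.08 and 0.11. MSTRG.5726.1 had 27.09, 18.14 and 7.69 in MII oocytes, 83.32, 84.54 and 46.42 in PN embryos, and 0 in every sperm library. Its PN embryo libraries did not overlap with the MII oocyte libraries, with means of 71.4 ± 21.7 and 17.6 ± 9.71 (SD, n = 3 each). The share of all transcripts that separate in this way, as MSTRG.5724.1 and MSTRG.5726.1 did, was not counted. These coverages are not scaled to library depth.

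Between PN embryos and MII oocytes none of these 3 transcripts passed in limma on log2(coverage + 1), where 12 of 19810 transcripts did (0.0606%), nor did their loci in edgeR, where 46 of 26611 passed (0.173%). The locus MSTRG.5726 had a log2 fold change of 2.13 ± 0.78 (SE; edgeR, adjusted p = 0.345), and DESeq2 called it (adjusted p = 0.012), as 1 of 316 of 25413 loci called higher (1.24%). MSTRG.5724 had a log2 fold change of 0.52 ± 0.15 (SE; edgeR, adjusted p = 0.182). MSTRG.5725 had one of 0.06 ± 0.15 (SE; edgeR, adjusted p = 0.999).

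In sperm all 3 loci were lower than in MII oocytes, as were 54.1% of the 19353 loci tested, and lower than in PN embryos, as were 52.0% of 17980. The median log2 fold change of all loci was −6.00 against MII oocytes. Against this, MSTRG.5725 had a log2 fold change of −6.45 ± 1.499 (SE; edgeR, adjusted p = 0.0112), close to the median locus, and MSTRG.5724 one of −9.16 ± 1.80 (SE; edgeR, adjusted p = 0.00666). MSTRG.5726 had 301, 202 and 86 counts in MII oocytes and 0 in all sperm libraries, at least 50.1-fold lower by the limit of 3 counts over the sperm libraries. In limma all 3 transcripts were lower in sperm than in MII oocytes, as were 82.8% of the 11162 transcripts tested. The 3 were also lower in sperm than in PN embryos, as were 79.1% of 10022. Coverage was not scaled to library depth for limma. The median log2 fold change of all transcripts was −4.31 against MII oocytes and −4.32 against PN embryos. Lower RNA and lower library totals in sperm are therefore not separated by limma here.

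MSTRG.5727.1 was the exception, with a coverage of 577.39 in sperm 2 and 0 in the other 8 libraries. Its locus had 1579 counts in sperm 2, the library that also held the 1332 back-splice counts of circRNA-1572. Neither sperm 1 nor sperm 3 had a count there. Of 6724 loci of the mRNA table with at least 1000 counts in sperm 2, 1504 were at 0 in the other 8 libraries, as were 1415 of 6630 for sperm 1 and 1290 of 6649 for sperm 3. Of 9962 genes named in the lncRNA table, 1051 (10.6%) had a transcript with a coverage of at least 100 in sperm 2 and 0 elsewhere. Among 350 genes named there that were hosts of a circRNA above 0 in sperm 2, 86 (24.6%) had such a transcript. At 4 circles with at least 1000 counts in sperm 2 and 0 in sperm 1, only 1 host, C18orf25, had one. FBXO11 (6 transcripts) and ECPAS (1 transcript) had none in sperm 2 alone, and no transcript was listed for B3GALNT2. Whether the reads of MSTRG.5727 come from the exons of the circle was not tested.

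**Figure D5:**
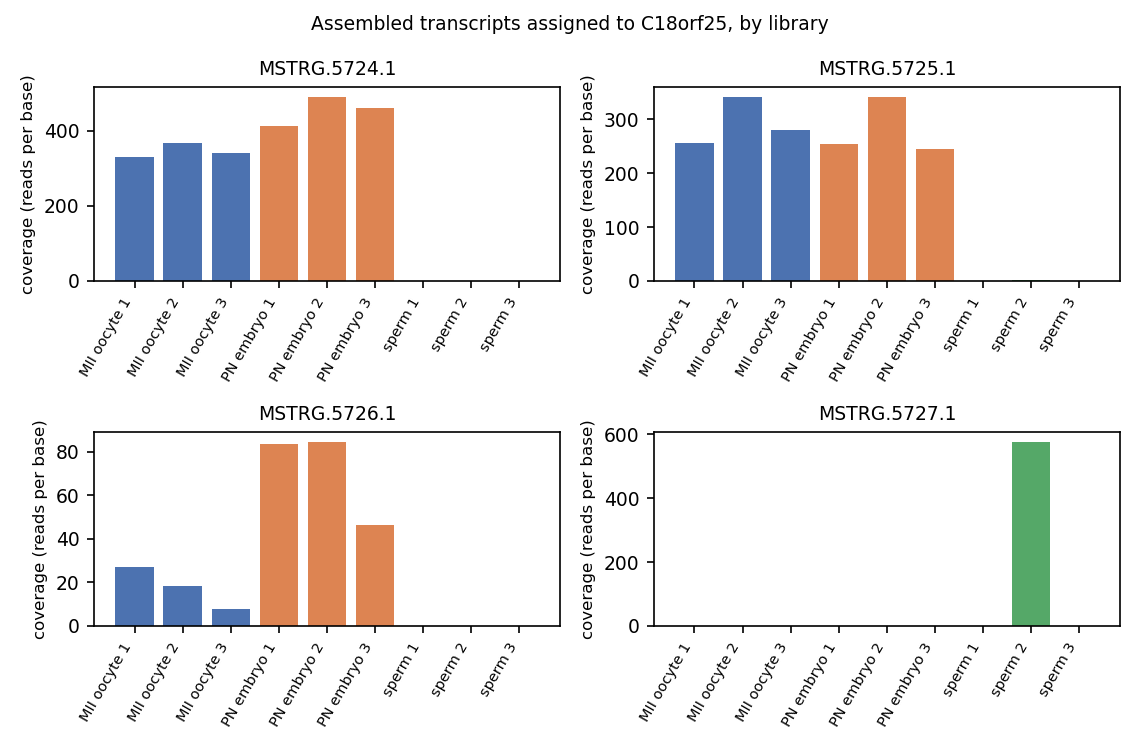
Coverage (mean reads per base) of the 4 assembled transcripts assigned to C18orf25 in each of the 9 libraries, each panel with its own axis from 0. MSTRG.5724.1, MSTRG.5725.1 and MSTRG.5726.1 were covered in MII oocytes and PN embryos and near 0 in sperm, whereas MSTRG.5727.1 was covered in sperm 2 alone (577.39).

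Total circRNA counts ranged from 22809 to 26200 in oocytes and embryos and from 155731 to 167851 in sperm, although the study lists nearly equal numbers of valid reads for all libraries (1.04 times from lowest to highest). The unit therefore bears on any comparison of sperm with embryos. The circle of sperm 2 was 1.91 times as abundant as that of PN embryo 1 per circRNA count, and 13.7 times per valid read. Of 16 sperm and spermatid markers, 7 had transcripts in the lncRNA table, with a summed coverage of 23317 to 28738 in sperm and 20.8 to 159.5 in the other libraries. Of 15 oocyte markers 2 had transcripts, with 0.39 to 118.25 in oocytes and embryos and 0, 479.76 and 0 in sperm 1, 2 and 3. Summed coverage of the 4 cumulus and granulosa markers found (of 8) was 69.8 to 393 in oocytes and embryos and 208 to 2890 in sperm, highest in sperm 2. Of 4 leukocyte markers 2 had transcripts, with 83.3 to 179 in oocytes and embryos and 0 to 506 in sperm, while 0 of 4 epithelial markers had one. Their part in the result was not tested.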

How the data were processed

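The authors deposited whole-number counts of back-splice reads per circRNA, whole-number counts per locus (mRNA table) and signal as coverage per assembled transcript (lncRNA table), without normalization. The libraries were depleted of ribosomal RNA, strand-specific and amplified by PCR. The submitters' processing notes name cutadapt 1.9, HISAT2 2.0.4, TopHat2 2.0.4, StringTie 1.3.4d, edgeR and the build Sscrofa11.1. The programs that called circRNAs and counted reads are not given in the sources used here. Totals of the mRNA table were 91924597 to 103318452 in oocytes and embryos and 25745522 to 26494348 in sperm. In oocytes and embryos they are above the numbers of valid reads listed by the study. At 12744 of 13225 loci with 1 transcript and at least 100 counts in 2 or more libraries, the ratio of locus count to coverage was the same within 2% in those libraries, so that the tables are not independent measurements and locus counts were not shown to be numbers of separate reads. Overlapping loci can share reads.

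Counts were tested with edgeR 4.0.16 (quasi-likelihood test, TMM, R 4.3.3) on the libraries of each pair of groups, for circRNAs with at least 10 counts in total and for loci kept by filterByExpr, and coverage with limma 3.58.1 on log2(coverage + 1) for transcripts at 1 or more in at least 3 libraries, a scale that understates changes of low transcripts. Coverage was not scaled to library depth before limma. A feature was called at a log2 fold change of 1 or more in either direction and a Benjamini-Hochberg adjusted p under 0.05. Single shares were tested by exact permutation (scipy 1.17.1). Tests were tried on simulated counts first. In the simulation of PN embryos against MII oocytes with 1390 circRNAs, 88 of 100 changed 16-fold and 22 of 100 changed 4-fold were recovered, with 3 calls among unchanged circRNAs. For sperm against MII oocytes (1713 circRNAs) these were 77, 10 and 1, and for sperm against PN embryos (1553 circRNAs) 82, 14 and 1. The simulated counts had the same set dispersion for all circRNAs. Gaps between libraries of a group as wide as those of circRNA-1572 were not modelled. These recoveries therefore do not describe the tests on circRNAs as uneven as this circle. Sequences were read from the study's list, and 0 columns of samples were left unused.

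Genes named are all circRNAs of C18orf25, their 2 neighbours on each side in each library, the 5 most alike circRNAs and the study's shortlist. Also named are the circRNAs counted in the same libraries as circRNA-1572, and host lists were counted whole. The members and lists were chosen with earlier results of these data known. Alternatives were another filter or none, DESeq2 1.42.0, valid reads as library size, all groups in 1 fit, a replicate block, identical columns kept apart, sums per host and leaving out each replicate.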

Additional observations from a re-analysis of the deposited data

How the results depend on the processing

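For circRNA-1572 the side of the threshold changed under 1 alternative, DESeq2 for sperm against MII oocytes (adjusted p = 2.9e-06, whereas the other alternatives gave 0.296 to 0.885 for it). For PN embryos against MII oocytes all 11 alternatives kept it short of the threshold (adjusted p from 0.317 to 0.728), and so did all 15 for the test across the 3 groups (0.0569 to 0.864). For sperm against PN embryos the direction turned with a filter on 3 libraries (adjusted p = 0.646), with sperm 1 and 3 as separate samples (0.956) and with the replicate block (adjusted p = 1), and leaving out 1 library gave 0.369 to 0.934, turned without PN embryo 3 (0.933) or sperm 2 (0.369). The mean share was 0.0172% without PN embryo 1 and 0.225% without PN embryo 3, and 0 without sperm 2 and 0.794% without sperm 1. Against MII oocytes the circle had too few counts to be tested without PN embryo 1 (PN embryos) or without sperm 2 (sperm), and was above 0 in too few libraries for the 3-library filter. In another unit, CPM of the valid reads the study lists, the means were 0.44 in PN embryos and 8.29 in sperm.

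Counts of circRNAs past the threshold moved more. Between PN embryos and MII oocytes there were 28 with DESeq2 and 1 with the adjusted p alone, against 0, and 0 without any 1 replicate. For sperm against MII oocytes there were 61 with the 3-library filter, 304 with DESeq2, 2 with all groups in 1 fit, 31 with sperm 1 and 3 apart and 0 with the replicate block, against 17, and 2 (without MII oocyte 2) to 17 without 1 replicate, 10 without sperm 2. For sperm against PN embryos, 1 rose to 54 with the 3-library filter, 295 with DESeq2, 9 with valid reads, 8 with no filter, 8 with sums per host, 5 with sperm 1 and 3 apart and 2 in 1 fit, and fell to 0 with the replicate block, with 0 to 10 without 1 replicate. The cause was not tested. With 1 sperm library left, that library was assumed to vary like the other group.

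Libraries of the same number did not deviate together (r from -0.0124 to 0.0582 over 7 pairs, -0.0622 to 0.0215 over 14 other pairs), so that the samples share only a number. With the replicate block circRNA-1572 had adjusted p of 0.721, 0.885 and 1 in the comparisons of PN embryos with MII oocytes, sperm with MII oocytes and sperm with PN embryos, and 0.864 across the groups. Of 141 alternatives for the loci and transcripts assigned to C18orf25, 132 kept direction and call. The replicate block took the call from MSTRG.5724 and MSTRG.5726 in sperm against MII oocytes (0.0952 for both) and against PN embryos (0.0538 and 0.0885). The log2 fold changes of MSTRG.5724 were -9.72 and -10.19 with the block, against -9.16 and -9.67 without it. Those of MSTRG.5726, fitted with 0 counts in all sperm libraries, were -9.85 and -11.93 with the block, against -9.91 and -11.96 without it. MSTRG.5725 between PN embryos and MII oocytes turned direction without MII oocyte 1 or PN embryo 2 as counts and without MII oocyte 2 or PN embryo 3 as coverage, and leaving out 1 replicate gave adjusted p of 0.921 to 0.99996 as counts and 0.907 to 0.9996 as coverage. By Spearman rho, 2 of the 5 most alike circRNAs were shared, with 11 tied.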
